A study of Mus musculus with 15 samples.

Results

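Sox9-GFP+ cells of mouse pancreas taken at postnatal day 23 (p23) were compared with those at the embryonic age e10.5, counted in days from conception. Each large net change was assigned to the interval before or after e15.5 in which it mainly took place, where this could be told. The comparison used 6 of the 15 arrays, 3 titled for each age, chosen by their titles, and 3 Sox9-GFP+ arrays at e15.5 divided the time between them. Both ages carried a Sox9-EGFP reporter on a CD1 background, from Sox9-EGFP males mated to CD1 wild-type females for the embryos, and a flow sort of dissociated pancreas kept only the brightest GFP cells. GFP- cells, also sorted at p23, gave 3 more arrays, which are used here as a background, and 3 Ngn3-GFP+ arrays at e15.5 entered the fit without being described. Animals were pooled before each sort, and nothing says that the 3 arrays of a group came from separate litters, so a p-value measures only the spread between arrays, which may be technical. The reporter marks cells with an active Sox9 reporter gene and not one cell type, and no gate against other cell types is described.

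SOX9 is a transcription factor kept in the multipotent progenitors of the early pancreatic bud and, later, in the duct. At e10.5 the bud is an epithelium of dividing progenitors with a first wave of glucagon cells. Around e15.5 it branches into acinar tips and a trunk that yields endocrine and duct cells, and after birth the SOX9+ cells form the ducts, which carry digestive enzymes and secrete bicarbonate. The comparison spans these stages.

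Levels are log2(intensity + 16), where the intensity is the deposited array signal of a gene's brightest probe set, and a change is the difference of 2 such levels, so 1 unit is a doubling and changes of dim genes are understated. A level under 6.83 lay under the 30th percentile of all values and is called dim. The highest level of any gene tested was 14.98. A gene was called at a limma adjusted p of 0.05, with n = 3 arrays per group and 16883 genes tested. Sox9-GFP+ arrays of a group correlated at 0.971 to 0.987 at e10.5, 0.988 to 0.993 at e15.5 and 0.969 to 0.981 at p23. Their number limits the precision. The Ngn3-GFP+ arrays correlated at 0.935 to 0.962, and every SE includes their spread, since the fit holds 1 variance per gene. The Sox9 transcript checked the sort. It had levels of 12.12, 11.93 and 11.84 at e10.5, 12.14, 12.10 and 12.11 at e15.5 and 11.62, 11.94 and 12.10 at p23, against 10.08, 9.81 and 8.68 in GFP- cells. The change from e10.5 to p23 was -0.08 (SE 0.32, adjusted p = 0.878), and the 2 groups overlapped, while all 9 Sox9-GFP+ arrays lay above the GFP- ones. Some libraries stood apart from others of their age: e10.5 arrays 1 and 2 held embryonic globin, with Hbb-y at 10.48 and 11.20 against 6.05 in array 3, and p23 arrays 2 and 3 held more of the leukocyte gene Ptprc, at 10.64 and 10.09 against 8.12 in array 1. A count of at least 3 called genes of a list is therefore also given without each of these 2 pairs of arrays where that moved it by more than 1.5 times. Such a fit keeps 1 array at that age.

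From e10.5 to p23, 6916 of the 16883 genes changed, 2981 upward (17.7%) and 3935 downward (23.3%). These shares are the background for the list counts of net change below that come from this same fit. List counts from refits, with other scalings or fewer arrays, have backgrounds of their own and are not to be read against these shares. Without either pair of arrays fewer genes were called in all, so a smaller list count there does not by itself show a lost change. Without the 2 e10.5 arrays with globin 3951 were called, with the array that remains assumed to vary like the other groups. Large changes, those called and at least 4-fold, numbered 931, of which 546 were rises (3.23% of the genes tested) and 385 falls (2.28%). Rises of at least 16-fold numbered 134 and falls of that size 62. The median change over all genes was -0.01.

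The interval of each large change was read from a test of the difference between the intervals, since a call in one interval and none in the other does not show that they differ. Over all genes tested 28.2% changed between e10.5 and e15.5 and 57.5% between e15.5 and p23, and for 47.8% the 2 intervals differed. Of the 931 large changes, 475 (51.0%) took place mainly after e15.5, meaning that the later interval moved further in the net direction. Mainly before e15.5 fell 105 changes (11.3%), a number that ranged from 65 without e15.5 array 3 to 113 over the fits that each left out 1 array. Another 36 (3.87%) passed through an extreme at e15.5, with a called change against the net direction, and 315 (33.8%) could not be placed. The intervals share the e15.5 arrays, and they differ in length and include birth only in the later one.

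Rises and falls were spread differently over the intervals. Among the 546 large rises, 222 (40.7%) were placed after e15.5, 88 (16.1%) before it and 7 through an extreme. Among the 385 large falls, 253 (65.7%) were placed after e15.5, 17 (4.42%) before it and 29 through an extreme. Without e15.5 array 3, 53 rises and 12 falls were placed before it, and without the globin arrays 13 falls passed through an extreme. In the rises placed before e15.5 a median of 78.7% of the net change had been reached by then, and in those placed after it 8.55%. Of 152 large changes of named genes, 46 changed class in at least 1 of the 9 fits that left out an array, and the placement of such a gene is described below with the range of its p over these fits.

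**Figure D1:**
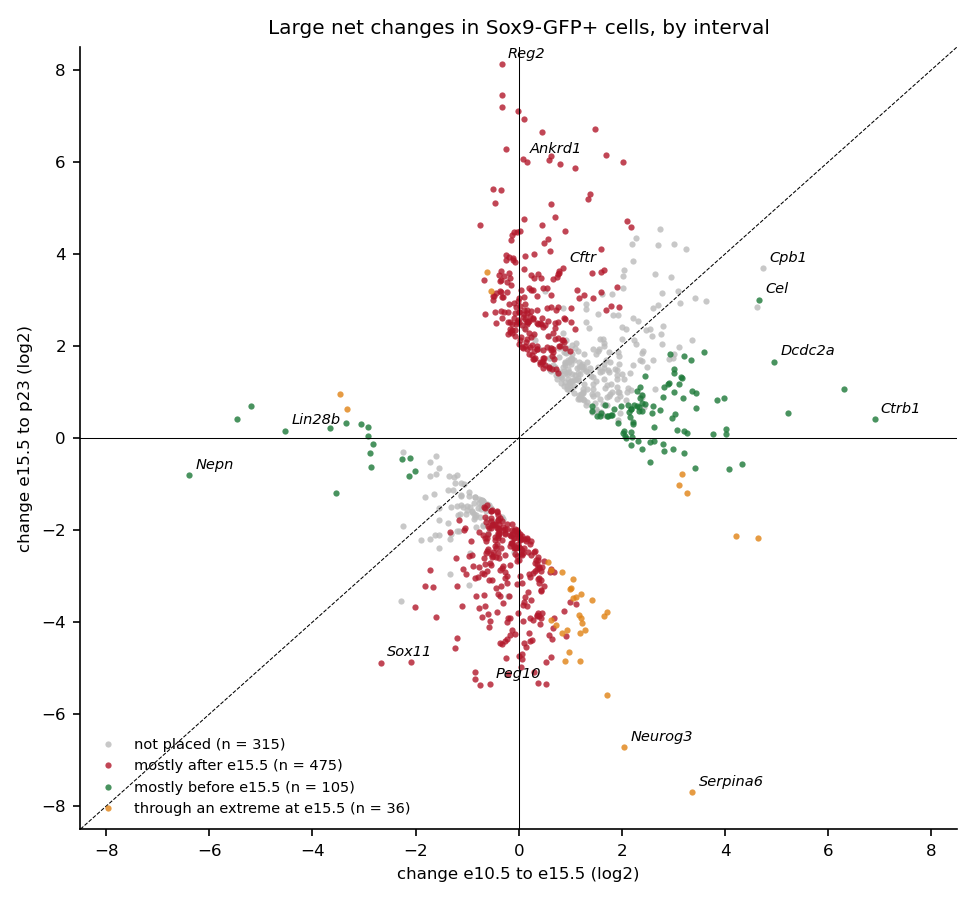
Change before e15.5 (x axis, log2) against change after e15.5 (y axis, log2) for the 931 genes with a large net change in Sox9-GFP+ cells, 1 point per gene. Colours give the class of interval, the dashed line marks equal changes in both, and most of the 475 red points of changes after e15.5 lie near the vertical axis.

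The acinar digestive enzymes had the highest median gain of the 35 gene lists examined. Of 33 listed enzyme genes 27 were measured, and all 27 rose against 17.7% of all genes tested, with a median of 6.77, against -0.01 for all genes, and each change was at least 4-fold. Placed before e15.5 were 6, after it 9, and 12 could not be placed, beside 16.1, 40.7 and 41.9% of all large rises. These placements rest on uneven e15.5 arrays. The mean level of the 27 enzymes was 8.19, 9.18 and 9.71 in e15.5 arrays 1, 2 and 3. It ranged only from 6.51 to 6.57 at e10.5 and from 12.87 to 13.09 at p23. Cpb1, which encodes carboxypeptidase B, had levels of 4.82, 4.96 and 5.08 at e10.5, 7.53, 10.82 and 10.69 at e15.5 and 13.41, 13.36 and 13.33 at p23. It rose by 8.42 (SE 0.69, adjusted p = 2.75e-07), the largest gain of any named gene, and e15.5 array 1 lay well below the other two. Ctrb1, a chymotrypsinogen, had levels of 6.33, 6.04 and 7.34 at e10.5 and already 13.16, 13.57 and 13.69 at e15.5. At p23 it stood at 13.90, 13.93 and 13.81, a net gain of 7.31 (SE 0.24, adjusted p = 3.70e-11) of which 6.90 came before e15.5. Serpini2, a pancreatic serine protease inhibitor, followed the same course, with 6.31 before e15.5 and 1.06 after it, and so did Pnliprp1, a pancreatic lipase relative, with 5.22 before e15.5 and 0.54 after it.

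Reg2, a lectin secreted by acinar cells, behaved otherwise. It was dim at both embryonic ages, at 5.19, 5.38 and 5.31 at e10.5 and 4.75, 4.87 and 5.26 at e15.5, and stood at 13.22, 13.17 and 12.90 at p23, a gain of 7.80 (SE 0.15, adjusted p = 2.13e-13) placed after e15.5. Zg16, a zymogen granule protein, rose by 8.19 (SE 0.72, adjusted p = 5.52e-07), with 1.47 before e15.5 and 6.72 after it. Cuzd1, a protein of the zymogen granule membrane, rose by 7.10 (SE 0.30, adjusted p = 4.62e-10), of which 6.65 came after e15.5. Try4, a trypsinogen, rose by 7.85 (SE 0.91, adjusted p = 8.15e-06) and was at 4.71, 4.96 and 9.91 at e15.5, where array 3 alone was bright. Its placement after e15.5 rested on single arrays, with an adjusted p of 9.87e-09 to 0.199 for the difference of the intervals over the fits without 1 array. Trypsinogens, elastases and Reg genes are near-identical families whose probe sets may read each other's transcripts.

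Cel, the bile salt-activated lipase, lay between these courses. Its levels were 5.42, 5.96 and 5.503 at e10.5, 9.69, 10.39 and 10.76 at e15.5 and 13.30, 13.38 and 13.19 at p23, a rise of 7.66 (SE 0.29, adjusted p = 1.45e-10) with 4.65 before e15.5 and 3.01 after it. No array of one age overlapped those of another. It was placed before e15.5, and this placement was lost without e15.5 array 2 or 3, with an adjusted p of 0.00727 to 0.107 over the fits without 1 array. Cela3b, an elastase, rose by 7.22 (SE 0.71, adjusted p = 1.75e-06) and could not be placed, with 3.01 before e15.5 and 4.21 after it.

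Acinar gene promoters are known for sites of the PTF1 complex, which joins an E-box with the letters CACCTG to a TC-box with the letters TTCCCA. Both were searched on both strands in the 250 bases before the first listed RefSeq start (GRCm38.p6) of the 21 enzyme genes that matched the promoter table. CACCTG was found in 11 of 21 (52.4%) against 17.1% of all 27025 promoters of this length, TTCCCA in 13 of 21 (61.9%) against 21.5%, and both in 5 of 21 (23.8%) against 3.87%. The members share ancestry, so their promoters are not independent, and a match is a description and not a bound site. Cel (chr2:28563404-28563653, minus strand), Cela3b (chr4:137430521-137430770, minus strand) and Reg2 (chr6:78404905-78405154, plus strand) are shown as examples that carry the E-box letters, and they were picked after the search. Each line runs 5′ to 3′ toward the start of the gene, with the searched letters or their reverse complement in capitals.
Cel: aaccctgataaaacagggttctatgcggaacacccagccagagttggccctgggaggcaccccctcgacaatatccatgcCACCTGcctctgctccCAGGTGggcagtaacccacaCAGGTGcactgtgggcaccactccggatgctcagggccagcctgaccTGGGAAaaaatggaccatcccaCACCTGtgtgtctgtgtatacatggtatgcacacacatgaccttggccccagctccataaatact
Cela3b: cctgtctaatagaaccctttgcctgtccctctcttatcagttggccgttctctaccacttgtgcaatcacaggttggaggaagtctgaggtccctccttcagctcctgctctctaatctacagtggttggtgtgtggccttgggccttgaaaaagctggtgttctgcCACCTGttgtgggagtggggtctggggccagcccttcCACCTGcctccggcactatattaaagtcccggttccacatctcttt
Reg2: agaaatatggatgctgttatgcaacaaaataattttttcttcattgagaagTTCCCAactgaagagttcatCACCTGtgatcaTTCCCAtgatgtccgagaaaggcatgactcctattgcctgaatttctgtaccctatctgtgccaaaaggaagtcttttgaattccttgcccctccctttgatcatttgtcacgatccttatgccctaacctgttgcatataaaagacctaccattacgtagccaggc
Cel held CACCTG 4 times and TTCCCA once, Cela3b held CACCTG 2 times, and Reg2 held CACCTG once between 2 copies of TTCCCA.

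Ptf1a and Nr5a2, factors of the acinar program, did not rise with the enzymes, unlike 18 of the 24 genes of their list. Ptf1a, the acinar transcription factor of the PTF1 complex, had levels of 8.88, 8.35 and 7.96 at e10.5, 8.78, 8.71 and 9.15 at e15.5 and 7.27, 7.07 and 6.77 at p23, and fell by 1.36 (SE 0.31, adjusted p = 0.00247). All 3 p23 arrays lay below the 3 e10.5 arrays. The fall was not called without the 2 e10.5 arrays with globin, at -0.93 (adjusted p = 0.141), or without the 2 p23 arrays with leukocyte signal, at -1.13 (adjusted p = 0.0828). Nr5a2, a nuclear receptor of acinar cells, was at 11.02, 10.99 and 11.02 at e10.5 and 10.84, 10.80 and 11.13 at p23, a change of -0.08 (SE 0.18, adjusted p = 0.745). In this list, of acinar regulators and secretory machinery, 18 of 24 genes rose and 3 fell, beside 17.7 and 23.3% of all genes tested. Rbpjl, Bhlha15 and Gata4, which also belong to it, are not described singly. Dmbt1, a secreted scavenger glycoprotein, rose by 7.04 (SE 0.37, adjusted p = 3.23e-09). Pdia2, the pancreatic protein disulfide isomerase, rose by 6.07 (SE 0.53, adjusted p = 4.87e-07). Slc38a5, an amino acid transporter, fell by 4.91 (SE 0.22, adjusted p = 8.50e-10), mostly after e15.5.

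GFP- cells of the same age give a background for the acinar values. Their mean level over the 27 enzymes was 13.39 to 13.504 across arrays, against 12.87 to 13.09 in Sox9-GFP+ cells at p23 and 6.51 to 6.57 at e10.5. Between the 2 sorts at p23, 21.5% of all genes tested were higher and 14.5% lower in Sox9-GFP+ cells, and of the 27 enzymes 0 were higher and 4 lower. Cpb1 stood at 13.502, 13.55 and 13.38 in GFP- cells, Reg2 at 13.49, 13.54 and 13.39 and Ptf1a at 9.17, 9.59 and 8.70. The median difference of the enzymes between the sorts, Sox9-GFP+ minus GFP-, was -0.35. Ptf1a was called between the sorts, at -2.12 (SE 0.31, adjusted p = 6.94e-05). Cpb1 was not called, at -0.11 (SE 0.69, adjusted p = 0.924), but its SE is pooled over all groups and includes its scattered e15.5 arrays. How much enzyme RNA was carried from acinar cells into the sorted cells was not tested. In bulk samples fewer cells of a type and less RNA per cell cannot be told apart, here and for every group of genes below.

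**Figure D2:**
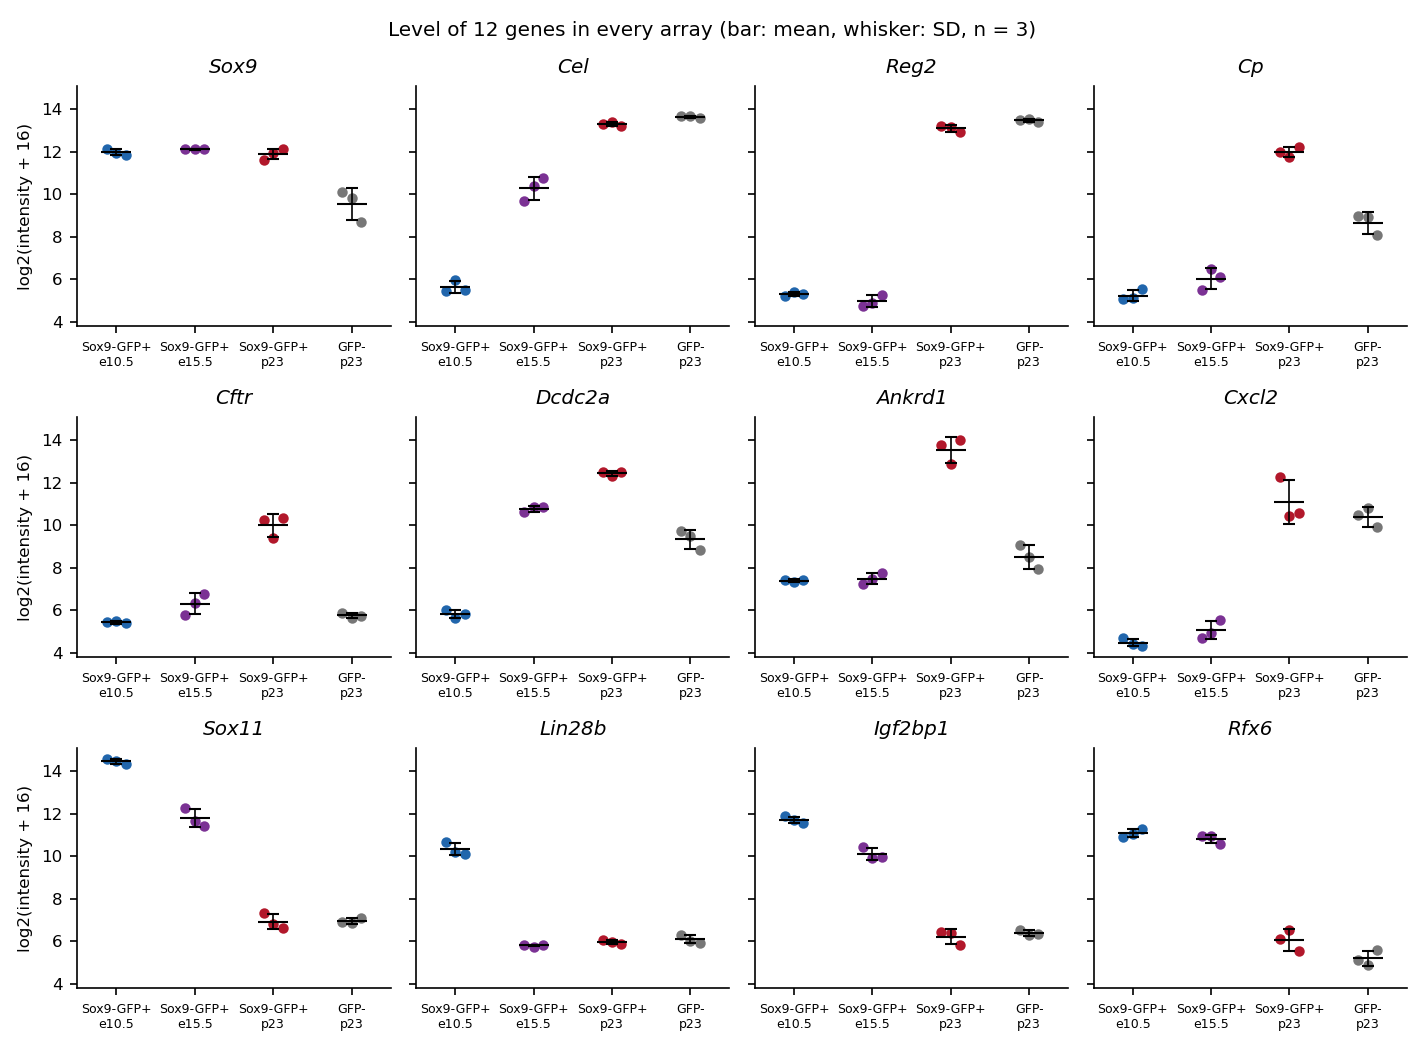
Level of 12 genes, as log2(intensity + 16), in each of 3 arrays per group, for the 3 ages of Sox9-GFP+ cells and for GFP- cells at p23, with the mean as a bar and the SD as a whisker. Sox9 is level across the Sox9-GFP+ ages, Dcdc2a rises mainly before e15.5, Reg2, Cp, Cftr, Ankrd1 and Cxcl2 rise after it, and Lin28b has fallen by e15.5 while Rfx6 falls later.

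Duct genes rose and, in contrast to the enzymes, stood higher in Sox9-GFP+ than in GFP- cells at p23. Of 36 measured duct genes 29 rose and 0 fell, with a median of 2.07. Between the sorts, 30 were higher in Sox9-GFP+ cells and 0 lower. The mean level of the list was 8.44 to 8.68 at e10.5, 9.52 to 9.87 at e15.5 and 11.08 to 11.17 at p23, against 8.78 to 9.23 in GFP- cells. Large rises numbered 18, of which 6 were placed before e15.5, 7 after it and 5 not at all. Of all large rises 16.1, 40.7 and 41.9% stood in these classes.

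Dcdc2a, a doublecortin-domain protein of the cilium whose human counterpart is mutated in a bile duct disease, led the early rises. It was dim at e10.5, at 6.003, 5.64 and 5.80, reached 10.62, 10.84 and 10.85 by e15.5 and 12.48, 12.31 and 12.49 at p23, a gain of 6.61 (SE 0.20, adjusted p = 2.24e-11). GFP- cells had 9.70, 9.46 and 8.81. Cldn10, a claudin of tight junctions, rose by 4.01 before e15.5 and changed by 0.20 (SE 0.34, adjusted p = 0.626) after it. Muc1, an apical mucin, went from 8.35, 8.01 and 7.73 to 10.55, 10.76 and 11.01 and then 11.01, 11.61 and 11.55, with 2.74 before e15.5 and 0.62 after it. In GFP- cells Cldn10 stood at 10.88, 10.89 and 10.81 and Muc1 at 11.41, 11.34 and 11.25, and neither was called between the sorts, with Sox9-GFP+ minus GFP- at 0.28 (SE 0.34, adjusted p = 0.571) and 0.06 (SE 0.26, adjusted p = 0.899). Ehf, an epithelial ETS factor, rose by 5.46 (SE 0.35, adjusted p = 2.04e-08) and was placed before e15.5, but with an adjusted p of 0.0327 to 0.118 over the fits without 1 array this rested on single arrays.

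The later rises included the gene that gives the duct its chloride channel. Cftr had levels of 5.42, 5.499 and 5.37 at e10.5, 5.78, 6.32 and 6.77 at e15.5 and 10.25, 9.38 and 10.32 at p23, and rose by 4.55 (SE 0.40, adjusted p = 5.01e-07), of which 3.69 came after e15.5. In GFP- cells it was dim, at 5.88, 5.64 and 5.74. Cp, which encodes the ferroxidase ceruloplasmin, went from 5.04, 5.12 and 5.52 to 5.497, 6.49 and 6.08 and then to 11.98, 11.75 and 12.23, a rise of 6.76 (SE 0.49, adjusted p = 7.51e-08), against 8.98, 8.92 and 8.05 in GFP- cells. Tff2, a trefoil peptide of mucous surfaces, rose by 6.54 (SE 0.32, adjusted p = 1.72e-09) to 12.39, 12.71 and 12.29. All 3 GFP- arrays lay above these, at 13.37, 13.33 and 13.24, though the sorts were not called apart (-0.85, SE 0.32, adjusted p = 0.0535). Krt19, a keratin that marks ducts, was at 9.51, 9.03 and 8.67 at e10.5 and 11.80, 12.02 and 11.92 at p23, a rise of 2.84 (SE 0.22, adjusted p = 1.73e-07) whose placement after e15.5 was not kept in every fit without 1 array, at an adjusted p of 0.0181 to 0.195. Krt23, another keratin, rose by 6.45 (SE 0.53, adjusted p = 2.66e-07) over both intervals, with 2.96 before e15.5 and 3.49 after it.

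For other duct and epithelial genes no net change was called. Epcam, an epithelial adhesion molecule, had levels of 11.83, 11.81 and 11.71 at e10.5 and 11.86, 11.89 and 12.02 at p23, a change of 0.14 (SE 0.11, adjusted p = 0.352). Krt7 was at 10.80, 10.55 and 10.64 and 10.59, 11.12 and 10.90, a change of 0.21 (SE 0.19, adjusted p = 0.426) made of 0.92 before e15.5 and -0.71 after it, both called. Ambp, a secreted protease inhibitor, had levels of 12.68, 12.62 and 12.40 and 12.58, 12.55 and 12.74, a change of 0.05 (SE 0.17, adjusted p = 0.849). In GFP- cells Krt7 was at 7.58, 7.67 and 6.99 and Ambp at 9.75, 9.77 and 8.98. The groups overlapped for Krt7 and Ambp and not for Epcam.

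**Figure D3:**
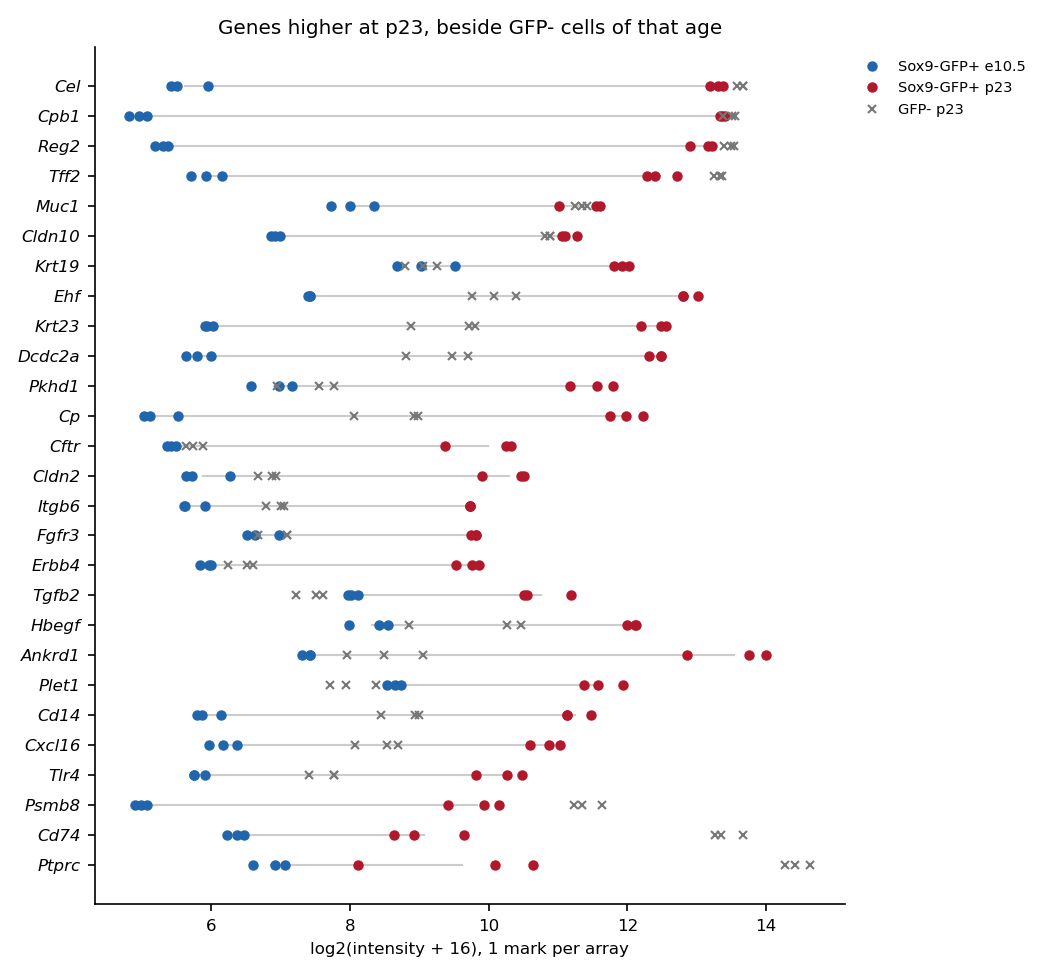
Level in each array, as log2(intensity + 16) on the x axis, of genes with a called rise from e10.5 to p23, for Sox9-GFP+ cells of the early (blue) and late age (red) and GFP- cells at p23 (grey crosses). The crosses of Cel, Cpb1, Reg2 and Tff2 lie at or right of the red points, those of Cftr, Pkhd1 and Ankrd1 lie far to their left, and those of Cd74 and Ptprc far to their right.

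Ductal fluid is made by channels and exchangers that move chloride, potassium and bicarbonate, and 14 of 28 such genes rose while 1 fell, with a median of 0.41. Beside Cftr, the calcium-gated chloride channel Ano1 rose by 3.22 (SE 0.32, adjusted p = 1.75e-06), from 7.27, 7.24 and 7.19 to 10.25, 10.56 and 10.56. Kcnn4, a calcium-gated potassium channel, rose by 2.69 (SE 0.23, adjusted p = 3.72e-07), of which 2.53 came after e15.5. Kcnq1, a voltage-gated potassium channel, rose by 2.62 (SE 0.20, adjusted p = 1.48e-07), of which 2.16 came before it. Car2, a carbonic anhydrase that forms bicarbonate, had levels of 7.06, 7.13 and 6.38 at e10.5 and 10.04, 9.996 and 9.35 at p23 and rose by 2.94 (SE 0.27, adjusted p = 8.52e-07). The anion exchanger gene Slc4a2 changed by -0.15 (SE 0.15, adjusted p = 0.469). The rises of Kcnn4 and Kcnq1 were thus placed in different intervals.

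Junction, keratin and apical membrane genes rose in 19 and fell in 5 of 31 cases, and 2 fell without the globin arrays. Cldn2, a pore-forming claudin, had levels of 6.28, 5.73 and 5.64 at e10.5, 7.37, 8.08 and 8.20 at e15.5 and 9.91, 10.47 and 10.51 at p23 and rose by 4.42 (SE 0.37, adjusted p = 3.02e-07). In GFP- cells it was at 6.88, 6.67 and 6.93. Cldn8 rose by 4.23 (SE 0.38, adjusted p = 5.73e-07), whereas Cldn4, bright at every age, changed by 0.66 (SE 0.31, adjusted p = 0.109).

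The primary cilium, a sensory rod on duct cells, was measured by a list with 8 of 30 genes higher and 7 lower, near the 17.7 and 23.3% of all genes, and a median of -0.0027. With median centring of the arrays 2 were lower and with quantile normalization 4. Without the globin arrays 4 were higher and 1 lower, and without the leukocyte arrays 5 were higher. Its rises included genes known from cystic kidney disease. Pkhd1, which encodes fibrocystin, went from 6.57, 6.98 and 7.17 to 8.61, 8.98 and 8.92 and then 11.79, 11.57 and 11.18, a rise of 4.60 (SE 0.31, adjusted p = 3.78e-08), against 7.56, 7.76 and 6.94 in GFP- cells. Cys1, which encodes cystin, rose by 2.81 (SE 0.21, adjusted p = 9.94e-08), mostly before e15.5, and Bicc1, an RNA-binding protein, by 2.71 (SE 0.29, adjusted p = 3.54e-06). Kif3a, a motor subunit that builds the cilium, changed by -0.03 (SE 0.13, adjusted p = 0.882), and Rfx3, a ciliary transcription factor, fell by 1.29 (SE 0.15, adjusted p = 9.86e-06).

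In the FGF and EGF list 12 of 25 rose and 3 fell, beside 17.7 and 23.3% of all genes tested. Among the ligands, Hbegf had levels of 7.98, 8.42 and 8.55 at e10.5, 7.81, 8.49 and 8.31 at e15.5 and 12.13, 12.11 and 11.99 at p23 and rose by 3.76 (SE 0.34, adjusted p = 7.26e-07), all of it after e15.5. Of the receptors, Erbb4 rose by 3.78 (SE 0.34, adjusted p = 7.22e-07), from 5.83, 5.96 and 6.001 to 9.86, 9.53 and 9.75, and Fgfr3 by 3.09 (SE 0.26, adjusted p = 3.96e-07), with 1.92 before e15.5 and 1.86 after it for Erbb4 and 1.54 before e15.5 and 1.55 after it for Fgfr3. Erbb3, another receptor, changed by 0.40 (SE 0.21, adjusted p = 0.15). Etv1, a transcription factor induced by FGF, fell by 2.37 (SE 0.28, adjusted p = 8.27e-06), from 10.44, 10.62 and 10.57 to 7.86, 7.81 and 8.86, while the feedback phosphatase gene Dusp6 changed by 0.36 (SE 0.36, adjusted p = 0.463). Hbegf, Erbb4 and Fgfr3 were thus higher where Etv1 was lower.

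In the Hedgehog, BMP and TGF-beta list 7 of 35 genes rose and 11 fell, close to the 17.7 and 23.3% of all genes. The ligand Tgfb3 rose by 3.45 (SE 0.25, adjusted p = 9.51e-08), to 10.73, 11.29 and 11.07. Tgfb2, a second TGF-beta ligand, went from 7.96, 8.02 and 8.11 to 11.19, 10.56 and 10.51, a rise of 2.72 (SE 0.20, adjusted p = 9.37e-08), and was at 7.51, 7.61 and 7.22 in GFP- cells. The BMP target Id1 fell by 2.32 (SE 0.28, adjusted p = 1.02e-05) and the growth factor gene Gdf11 by 2.72 (SE 0.21, adjusted p = 1.24e-07), and Gdf11 was placed after e15.5. The same placement of Id1 was lost without e15.5 array 1, at an adjusted p of 0.00999 to 0.0689 over the fits without 1 array. The receptor gene Bmpr1a changed by 0.01 (SE 0.19, adjusted p = 0.976).

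Before any refit, Notch and Wnt counts stood beside the 17.7% of all genes tested that rose and the 23.3% that fell. Of 24 Notch genes 3 rose and 9 fell, with 6 higher after quantile normalization and 3 lower without the globin arrays. Hes1, the repressor that Notch induces in progenitors, nonetheless rose by 2.88 (SE 0.23, adjusted p = 2.21e-07), from 8.79, 8.45 and 8.27 at e10.5 and 9.07, 8.97 and 8.89 at e15.5 to 11.18, 11.25 and 11.72 at p23. The receptor gene Notch2 rose by 1.04 (SE 0.20, adjusted p = 8.38e-04), while the ligand Jag1 changed by -0.08 (SE 0.16, adjusted p = 0.719). Of 33 Wnt genes 6 rose and 10 fell, with 9 higher and 9 lower after quantile normalization, 3 higher after median centring, 3 higher and 6 lower without the globin arrays, and 1 higher without the leukocyte arrays. The receptor genes Fzd3 and Fzd7 fell by 1.72 (SE 0.20, adjusted p = 7.40e-06) and 1.41 (SE 0.19, adjusted p = 3.16e-05).

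YAP and TEAD targets included a large late gain. Ankrd1, a nuclear ankyrin repeat protein and known target, had levels of 7.43, 7.31 and 7.43 at e10.5, 7.21, 7.48 and 7.73 at e15.5 and 13.75, 12.86 and 13.998 at p23, and rose by 6.14 (SE 0.29, adjusted p = 1.17e-09). GFP- cells were at 9.06, 8.49 and 7.95, below Sox9-GFP+ cells by 5.03 (SE 0.29, adjusted p = 5.29e-09). Ccn1, a secreted matrix protein and target, rose by 5.001 (SE 0.28, adjusted p = 5.00e-09), with 3.21 before e15.5 and 1.79 after it. Wwtr1, which encodes the coactivator TAZ, rose by 1.55 (SE 0.16, adjusted p = 2.86e-06), whereas Tead2 fell by 1.52 (SE 0.20, adjusted p = 3.09e-05) and Tead1 changed by 0.20 (SE 0.19, adjusted p = 0.442). Of the list, 9 of 19 rose and 2 fell.

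Among basement membrane and integrin genes 14 of 29 rose and 3 fell, beside 17.7 and 23.3% of all genes tested. Itgb6, the epithelial integrin subunit that frees TGF-beta, rose by 4.01 (SE 0.23, adjusted p = 9.28e-09), from 5.61, 5.63 and 5.92 to 8.54, 8.75 and 8.88 at e15.5, and stood at 9.73, 9.73 and 9.73 at p23. Lama3, a laminin chain of mature epithelia, rose by 1.48 (SE 0.11, adjusted p = 1.36e-07), and Lama1, a laminin chain of the embryo, fell by 2.23 (SE 0.14, adjusted p = 1.30e-08). Lama3 had -0.30 before e15.5 and 1.78 after it, Lama1 had -0.31 before e15.5 and -1.92 after it, and the intervals differed for both genes, at adjusted p = 5.24e-06 and 2.63e-04.

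Defence and inflammatory genes were higher at p23. Of 30 antigen presentation and epithelial defence genes 22 rose and 0 fell, and 11 of 14 large rises were placed after e15.5. Of all large rises 40.7% were placed there. Reg3a and Reg3b, antimicrobial lectins, rose by 7.13 (SE 0.15, adjusted p = 4.18e-13) and 6.86 (SE 0.15, adjusted p = 4.18e-13) from dim levels, and both were brighter in GFP- cells, at 13.11, 13.15 and 13.03 and 13.18, 13.20 and 13.01. Tlr4, the receptor for bacterial lipopolysaccharide, went from 5.75, 5.92 and 5.75 to 9.81, 10.27 and 10.48, a rise of 4.38 (SE 0.19, adjusted p = 6.75e-10), against 7.77, 7.40 and 7.77 in GFP- cells. Its coreceptor Cd14 rose by 5.31 (SE 0.25, adjusted p = 1.21e-09), to 11.13, 11.13 and 11.48, with 8.93, 8.99 and 8.44 in GFP- cells. Psmb8, a subunit of the immunoproteasome, rose by 4.84 (SE 0.40, adjusted p = 2.80e-07) and was brighter in GFP- cells, at 11.22, 11.35 and 11.64.

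Of 24 chemokine and cytokine genes 18 rose and 0 fell. Cxcl2, which attracts neutrophils, had levels of 4.66, 4.40 and 4.33 at e10.5, 4.70, 4.92 and 5.52 at e15.5 and 12.28, 10.42 and 10.55 at p23, and rose by 6.62 (SE 0.39, adjusted p = 9.88e-09). Tnf rose by 4.15 (SE 0.28, adjusted p = 3.60e-08), to 11.33, 9.98 and 11.01. For both, the highest p23 array was array 1. Cxcl16, a membrane-bound chemokine, rose by 4.66 (SE 0.25, adjusted p = 3.51e-09), with 11.03, 10.87 and 10.60 at p23 and 8.70, 8.53 and 8.08 in GFP- cells. These 3 rises were placed after e15.5.

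Leukocyte genes also rose from e10.5 to p23, and their list includes Cd14, described above. Over p23 arrays 1, 2 and 3 the mean level was 7.63, 8.24 and 7.85 for the leukocyte list. It was 9.41, 9.73 and 9.69 for the defence list and 9.10, 8.67 and 8.60 for the chemokine list. Of 24 leukocyte genes 13 rose and 0 fell, with a median of 0.64, and 7 rose without p23 arrays 2 and 3, and as many without the e10.5 arrays with globin. The mean level of the list was 6.68 to 6.997 at e10.5, 7.63 to 8.24 at p23 and 10.85 to 11.29 in GFP- cells. Ptprc, which encodes the leukocyte antigen CD45, rose by 2.75 (SE 0.43, adjusted p = 1.24e-04) and stood at 14.28, 14.41 and 14.64 in GFP- cells. Cd74, the chain that escorts class II molecules, was at 6.23, 6.47 and 6.37 at e10.5 and 8.63, 9.65 and 8.92 at p23, a rise of 2.71 (SE 0.21, adjusted p = 1.33e-07), against 13.26, 13.35 and 13.67 in GFP- cells. Cd52 changed by 0.77 (SE 0.33, adjusted p = 0.0759), and by 1.15, a called rise, without p23 array 1. The part of leukocytes in the defence and chemokine rises was not tested. A fit without the 2 leukocyte arrays cannot decide it. The array that such a fit keeps, p23 array 1, still held Cd74 at 8.63, above the 6.23 to 6.47 at e10.5.

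Immediate early and stress genes rose in 23 of 27 cases, with a median of 3.07. These genes respond within minutes to growth factors, tissue dissociation and heat. Atf3, a stress transcription factor, had levels of 5.52, 5.42 and 5.61 at e10.5, 9.14, 10.65 and 10.63 at e15.5 and 13.06, 12.95 and 12.97 at p23, and rose by 7.48 (SE 0.79, adjusted p = 3.12e-06). Fos, a subunit of the AP-1 factor, was at 6.66, 7.82 and 7.89, then 10.22, 11.15 and 10.99, then 12.41, 12.39 and 12.63, a rise of 5.02 (SE 0.31, adjusted p = 1.47e-08). Hspa1a, a heat shock protein, rose by 5.500 (SE 0.40, adjusted p = 7.34e-08), mostly after e15.5. GFP- cells of the same age had Atf3 at 11.96, 12.07 and 11.07, Fos at 11.74, 11.63 and 11.31 and Hspa1a at 11.36, 11.78 and 10.90. Trypsin was added to the collagenase B digestion only where needed, and the part of the digestion in these values was not tested.

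Turning to the falls, the fetal growth genes were lower at p23. Of 22 measured genes of this list 0 rose and 17 fell, with a median of -3.44. Of its 14 large falls 12 were placed after e15.5 and 1 before it, beside 65.7 and 4.42% of all large falls. Lin28b, which blocks maturation of the let-7 microRNAs, was the early one. It had levels of 10.66, 10.20 and 10.12 at e10.5, 5.82, 5.74 and 5.81 at e15.5 and 6.05, 5.95 and 5.85 at p23, and fell by 4.38 (SE 0.14, adjusted p = 2.49e-11), while its relative Lin28a changed by -0.25 (SE 0.14, adjusted p = 0.169). Igf2bp1, an RNA-binding protein that let-7 restrains, was at 11.86, 11.69 and 11.57, then 10.42, 9.92 and 9.97, then 6.42, 6.38 and 5.82, and fell by 5.501 (SE 0.34, adjusted p = 1.55e-08). It was placed after e15.5, though its e15.5 arrays already lay below those of e10.5. With all its probe sets averaged it could not be placed, at an adjusted p of 0.136 for the difference of the intervals. The e10.5 and e15.5 values of Lin28b do not overlap, and those of e15.5 and p23 are both dim.

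Several imprinted genes were bright at both embryonic ages and fell after e15.5. Igf2, the fetal growth factor, had levels of 12.04, 11.84 and 11.64 at e10.5, 11.26, 10.70 and 11.04 at e15.5 and 5.41, 6.36 and 5.98 at p23, and fell by 5.93 (SE 0.41, adjusted p = 5.11e-08). Peg10, a gene derived from a retrotransposon, was at 13.21, 13.29 and 13.33, then 12.54, 12.91 and 12.69, then 7.53, 6.70 and 7.85, and fell by 5.92 (SE 0.23, adjusted p = 2.23e-10). Dlk1, a membrane protein related to Notch ligands, fell by 5.34 (SE 0.22, adjusted p = 3.64e-10), with -0.21 before e15.5 and -5.13 after it. Zdbf2, a paternally expressed zinc finger gene, fell by 6.09 (SE 0.23, adjusted p = 1.40e-10) and Zim1, a maternally expressed one, by 5.80 (SE 0.23, adjusted p = 2.23e-10). Cdkn1c, an imprinted brake on the cell cycle, also fell by 3.56 (SE 0.15, adjusted p = 6.37e-10), from 11.90, 11.70 and 11.77 to 8.29, 8.34 and 8.07. Plagl1, another imprinted gene, changed by 0.07 (SE 0.26, adjusted p = 0.876), though by 0.86 (adjusted p = 0.0153) without the leukocyte arrays, and the receptor gene Igf2r by -0.18 (SE 0.10, adjusted p = 0.184).

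The largest fall of any named gene was that of Sox11, a transcription factor of embryonic progenitors. Its levels were 14.57, 14.45 and 14.35 at e10.5, 12.27, 11.67 and 11.43 at e15.5 and 7.30, 6.82 and 6.60 at p23, and fell by 7.55 (SE 0.35, adjusted p = 1.17e-09) with -2.67 before e15.5 and -4.88 after it. The placement after e15.5 was lost without e15.5 array 1, at an adjusted p of 0.0117 to 0.0607 over the fits without 1 array. In the progenitor factor list 14 of 29 genes fell and 5 rose, beside 23.3 and 17.7% of all genes tested. Mnx1, a homeobox factor of the early bud, fell by 3.18 (SE 0.22, adjusted p = 3.96e-08), to 4.33, 5.06 and 4.73, while Prox1, a homeobox factor of the duct and progenitor, changed by 0.36 (SE 0.18, adjusted p = 0.145). Prox1 stood at 11.80, 11.58 and 11.88 at p23 and at 8.20, 7.78 and 7.23 in GFP- cells.

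A few genes had fallen by e15.5. Nepn, a proteoglycan gene of the foregut endoderm, had levels of 13.75, 13.57 and 13.23 at e10.5, 7.51, 6.65 and 7.19 at e15.5 and 6.30, 6.41 and 6.22 at p23, and fell by 7.21 (SE 0.22, adjusted p = 2.24e-11). Crabp2, which carries retinoic acid, fell by 4.75 (SE 0.36, adjusted p = 1.26e-07), with -3.55 before e15.5 and -1.20 after it. Without e15.5 array 3 its placement was lost, at an adjusted p of 0.0103 to 0.0586 over the fits without 1 array. Nrp2, a semaphorin coreceptor, fell by 2.73 (SE 0.24, adjusted p = 5.73e-07), with -2.27 before e15.5 and -0.46 after it. Cysltr2, a leukotriene receptor, had levels of 10.58, 10.10 and 10.70 at e10.5 and fell by 4.49 (SE 0.42, adjusted p = 8.78e-07) by p23. It was placed before e15.5, but through an extreme at e15.5 with array weights or with the Sox9-GFP+ arrays alone.

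The liver buds from neighbouring endoderm, and its genes were measured as a marker list. Of 13 liver genes 8 fell and 0 rose, beside 23.3 and 17.7% of all genes tested. The mean level of the list was 9.02 to 9.31 at e10.5 and 7.65 to 8.10 at e15.5, and 7.78 to 8.04 at p23. Afp, alpha-fetoprotein, went from 12.07, 11.41 and 11.60 to 9.55, 8.92 and 9.78 and 6.09, 5.81 and 5.70, and fell by 5.83 (SE 0.66, adjusted p = 6.69e-06). Apoa1 and Fgg, an apolipoprotein and a fibrinogen chain, changed by -3.35 and -3.65 before e15.5, both called, and were placed there. Alb, albumin, was at 8.32, 7.96 and 8.92 at e10.5 and 10.14, 10.28 and 10.45 at p23, and the 2 ages did not overlap. The change of 1.89 (SE 0.995, adjusted p = 0.15) was not called. It was called as a rise in limma fits of the 6 arrays compared (adjusted p = 1.21e-04) and of the 9 Sox9-GFP+ arrays alone (adjusted p = 0.00986). Whether liver bud cells were in the e10.5 sort was not tested.

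Endocrine genes were high in both embryonic groups and low at p23. Of 20 endocrine regulators 13 fell and 1 rose, with a median change of 0.13 before e15.5 and -2.34 after it. Isl1, a LIM homeobox factor of islet cells, had levels of 11.69, 11.69 and 11.91 at e10.5, 10.77, 11.37 and 10.93 at e15.5 and 5.09, 6.40 and 5.49 at p23, and fell by 6.10 (SE 0.27, adjusted p = 7.80e-10). Rfx6, needed for islet cell formation, fell by 5.02 (SE 0.23, adjusted p = 8.80e-10), with -0.25 before e15.5 and -4.77 after it. Pax6 fell by 4.93 (SE 0.21, adjusted p = 6.57e-10) and Neurod1 by 4.74 (SE 0.29, adjusted p = 1.59e-08), with 0.04 and 0.07 before e15.5, neither called. In GFP- cells, which the study takes for acinar and endocrine cells, Isl1 was at 5.92, 5.34 and 5.52 and Pax6 at 5.47, 5.54 and 5.35.

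Neurog3, the factor that commits progenitors to the endocrine fate, passed through a peak. Its levels ranged from 9.23 to 10.24 at e10.5 and were 12.12, 11.82 and 11.66 at e15.5 and 5.13, 5.25 and 5.06 at p23, and fell by 4.68 (SE 0.23, adjusted p = 1.63e-09), made of 2.04 before e15.5 and -6.72 after it. Serpina6, a corticosteroid-binding globulin, also peaked, at 9.72, 9.23 and 9.75, 12.77, 12.96 and 13.06 and 4.76, 5.03 and 5.93, with 3.37 before e15.5 and -7.69 after it. Cer1, a secreted antagonist of Nodal and BMP, followed at 8.34, 8.30 and 8.28, 10.30, 9.94 and 9.78 and 4.37, 4.69 and 4.22. For these 3 genes the values at each age were clear of those at the other ages. Among the rises, Clca3a1, a secreted regulator of chloride channels, passed through a peak, at 5.43, 5.59 and 5.46, 9.80, 10.12 and 10.495 and 8.25, 7.35 and 8.30.

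Hormone and granule genes fell in 25 and rose in 3 of 32 cases, with a median of -2.55. Gcg, which encodes glucagon, was bright in the bud, at 13.29, 13.20 and 13.46 at e10.5 and 12.46, 12.68 and 12.69 at e15.5, and stood at 7.80, 9.23 and 9.12 at p23, and fell by 4.60 (SE 0.32, adjusted p = 5.13e-08). Pyy, another peptide hormone of early islet cells, fell by 4.22 (SE 0.44, adjusted p = 2.70e-06). Cpe, which trims prohormones, fell by 3.54 (SE 0.19, adjusted p = 4.20e-09), to 8.38, 9.24 and 8.53, and Abcc8, a subunit of the islet potassium channel, by 4.44 (SE 0.20, adjusted p = 1.10e-09). Ins2, one of the insulin genes, ran against the list. It had levels of 8.72, 8.38 and 9.07 at e10.5, 11.59, 12.43 and 12.32 at e15.5 and 10.65, 10.70 and 10.39 at p23, and rose by 1.86 (SE 0.24, adjusted p = 2.41e-05), with 11.97, 11.61 and 11.11 in GFP- cells.

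Sst, which encodes somatostatin, shows how a net value can hide a course: it was at 9.13, 8.27 and 9.06 at e10.5, 10.12, 12.15 and 11.79 at e15.5 and 8.28, 9.54 and 8.20 at p23, a net change of -0.15 (SE 0.46, adjusted p = 0.838) made of 2.53 before e15.5 and -2.68 after it. Its promoter holds the cyclic AMP response element TGACGTCA, which was found in 4 of 22 granule and hormone promoters (18.2%) against 1.62% of all promoters of this length, searched on both strands. The RefSeq sequence (chr16:23890845-23891094, minus strand, GRCm38.p6) is printed with these letters in capitals, as an example chosen after the search.
Sst: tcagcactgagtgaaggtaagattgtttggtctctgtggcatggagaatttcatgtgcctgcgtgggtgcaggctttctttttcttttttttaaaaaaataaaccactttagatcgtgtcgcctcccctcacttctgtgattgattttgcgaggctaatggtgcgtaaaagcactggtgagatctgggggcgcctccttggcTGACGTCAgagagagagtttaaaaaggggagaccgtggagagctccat

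Some neuronal genes fell too. Of 22 genes of neural crest, glia and neurons 9 fell and 1 rose, beside 23.3 and 17.7% of all genes tested. Nefl, a neurofilament chain, had levels of 13.24, 12.97 and 13.11 at e10.5, 10.87, 11.18 and 10.97 at e15.5 and 6.10, 5.93 and 6.38 at p23, and fell by 6.97 (SE 0.61, adjusted p = 4.91e-07). Tubb3, a neuronal tubulin, fell by 4.35 (SE 0.28, adjusted p = 2.74e-08), and Elavl4, an RNA-binding protein of neurons, fell by 3.46 (SE 0.16, adjusted p = 1.21e-09). Sox10, which marks neural crest, had levels of 7.53, 7.73 and 7.79 at e10.5 and 7.76, 7.76 and 7.79 at p23, a change of 0.09 (SE 0.13, adjusted p = 0.645). Axon guidance genes went both ways, with 9 of 30 higher and 12 lower, beside 17.7 and 23.3% of all genes tested. The receptor gene Robo1 fell by 3.91 (SE 0.18, adjusted p = 1.21e-09) in both intervals, and Sema3e, a secreted semaphorin, rose by 2.23 (SE 0.21, adjusted p = 1.07e-06).

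Replication and mitosis genes fell in 32 of 34 cases and rose in 0, with a median of -1.12. Their median change was 0.28 before e15.5 and -1.41 after it. Without the e10.5 arrays with globin 18 of them fell. Bub1b, a spindle checkpoint kinase, had levels of 10.72, 10.76 and 10.42 at e10.5, 10.91, 10.46 and 10.71 at e15.5 and 7.78, 8.04 and 8.64 at p23, and fell by 2.48 (SE 0.25, adjusted p = 2.51e-06). Plk1, a mitotic kinase, fell by 2.45 (SE 0.28, adjusted p = 7.11e-06), and Rrm2, which makes deoxynucleotides, fell by 2.42 (SE 0.23, adjusted p = 1.26e-06). In all 3 genes p23 array 3 was the highest of its age. Pcna, the sliding clamp of replication, changed by -0.16 (SE 0.12, adjusted p = 0.316). Of 23 brakes of the cell cycle 13 rose and 3 fell, with 1 lower after median centring and 1 without the globin arrays. Btg2 rose by 3.07 (SE 0.15, adjusted p = 1.50e-09), and Cdkn2c by 2.91 (SE 0.40, adjusted p = 4.44e-05).

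Promoters of mitotic genes are known for CCAAT boxes bound by NF-Y. The letters CCAAT, searched on both strands, were found in 21 of 27 promoters of the list (77.8%) against 34.5% of all promoters of this length. The promoter of Bub1, a checkpoint kinase that fell by 2.35 (SE 0.24, adjusted p = 2.57e-06), is shown as an example chosen after the search (chr2:127831860-127832109, minus strand, GRCm38.p6), with the letters or their reverse complement in capitals.
Bub1: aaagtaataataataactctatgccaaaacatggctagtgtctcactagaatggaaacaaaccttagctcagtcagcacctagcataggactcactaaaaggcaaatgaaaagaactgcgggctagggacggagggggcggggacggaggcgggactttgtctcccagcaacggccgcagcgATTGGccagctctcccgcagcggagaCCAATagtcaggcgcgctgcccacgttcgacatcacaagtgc

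Ribosome biogenesis and chromatin genes fell by less. Of 23 genes of the Myc family and ribosome biogenesis 18 fell and 0 rose, with a median of -0.86. Mycl fell by 1.76 (SE 0.27, adjusted p = 9.45e-05) and Cad, which starts pyrimidine synthesis, by 1.39 (SE 0.17, adjusted p = 1.04e-05), whereas Myc itself changed by 0.18 (SE 0.29, adjusted p = 0.656). Without the e10.5 arrays with globin 8 of this list fell. Of 31 Polycomb, DNA methylation and chromatin genes 18 fell and 1 rose. Of these, 10 fell without the globin arrays and 11 without the leukocyte arrays. Chd7, a chromatin remodeller, fell by 1.41 (SE 0.20, adjusted p = 5.59e-05), and Dnmt3b, a DNA methyltransferase, by 1.14 (SE 0.14, adjusted p = 1.60e-05).

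Energy metabolism was measured by lists of carbon and lipid genes. Of 38 glycolysis and respiratory chain genes 16 fell and 5 rose, against 23.3 and 17.7% of all genes. Without the globin arrays 7 fell and 5 rose, and 3 rose without the leukocyte arrays. The glucose transporter gene Slc2a3 went from 10.49, 10.23 and 9.77 to 8.33, 8.32 and 8.16 and 5.78, 6.42 and 5.98, and fell by 4.11 (SE 0.23, adjusted p = 5.57e-09), and stood at 8.68, 9.27 and 9.32 in GFP- cells. Pkm, a pyruvate kinase, fell by 2.497 (SE 0.15, adjusted p = 1.01e-08) and Ldha, a lactate dehydrogenase, by 1.85 (SE 0.13, adjusted p = 4.92e-08). Ppargc1a, which drives mitochondrial genes, rose by 2.38 (SE 0.30, adjusted p = 1.57e-05), while Atp5b, an ATP synthase subunit, changed by -0.14 (SE 0.12, adjusted p = 0.371). Lipid genes were split, with 10 of 27 higher and 10 lower, or 5 lower without the globin arrays. Cpt1a, which admits fatty acids to mitochondria, rose by 3.37 (SE 0.25, adjusted p = 1.12e-07), with 3.27 before e15.5 and 0.10 after it, and Acly, which makes acetyl-CoA for lipid synthesis, fell by 2.12 (SE 0.13, adjusted p = 1.45e-08), with -0.13 before e15.5 and -1.998 after it.

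Glutathione, xenobiotic and antioxidant genes rose in 16 and fell in 6 of 34 cases, with 10 higher without the leukocyte arrays and 1 lower without the globin arrays. Ephx1, an epoxide hydrolase, rose by 4.73 (SE 0.51, adjusted p = 4.07e-06) and Aldh1a1, an enzyme of retinoic acid synthesis, by 4.11 (SE 0.24, adjusted p = 7.68e-09), of which 2.92 came before e15.5. Cbr3, a carbonyl reductase, rose by 2.94 (SE 0.33, adjusted p = 5.84e-06), mainly after e15.5, to 9.14, 9.44 and 9.59, against 7.21, 6.80 and 5.75 in GFP- cells.

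**Figure D4:**
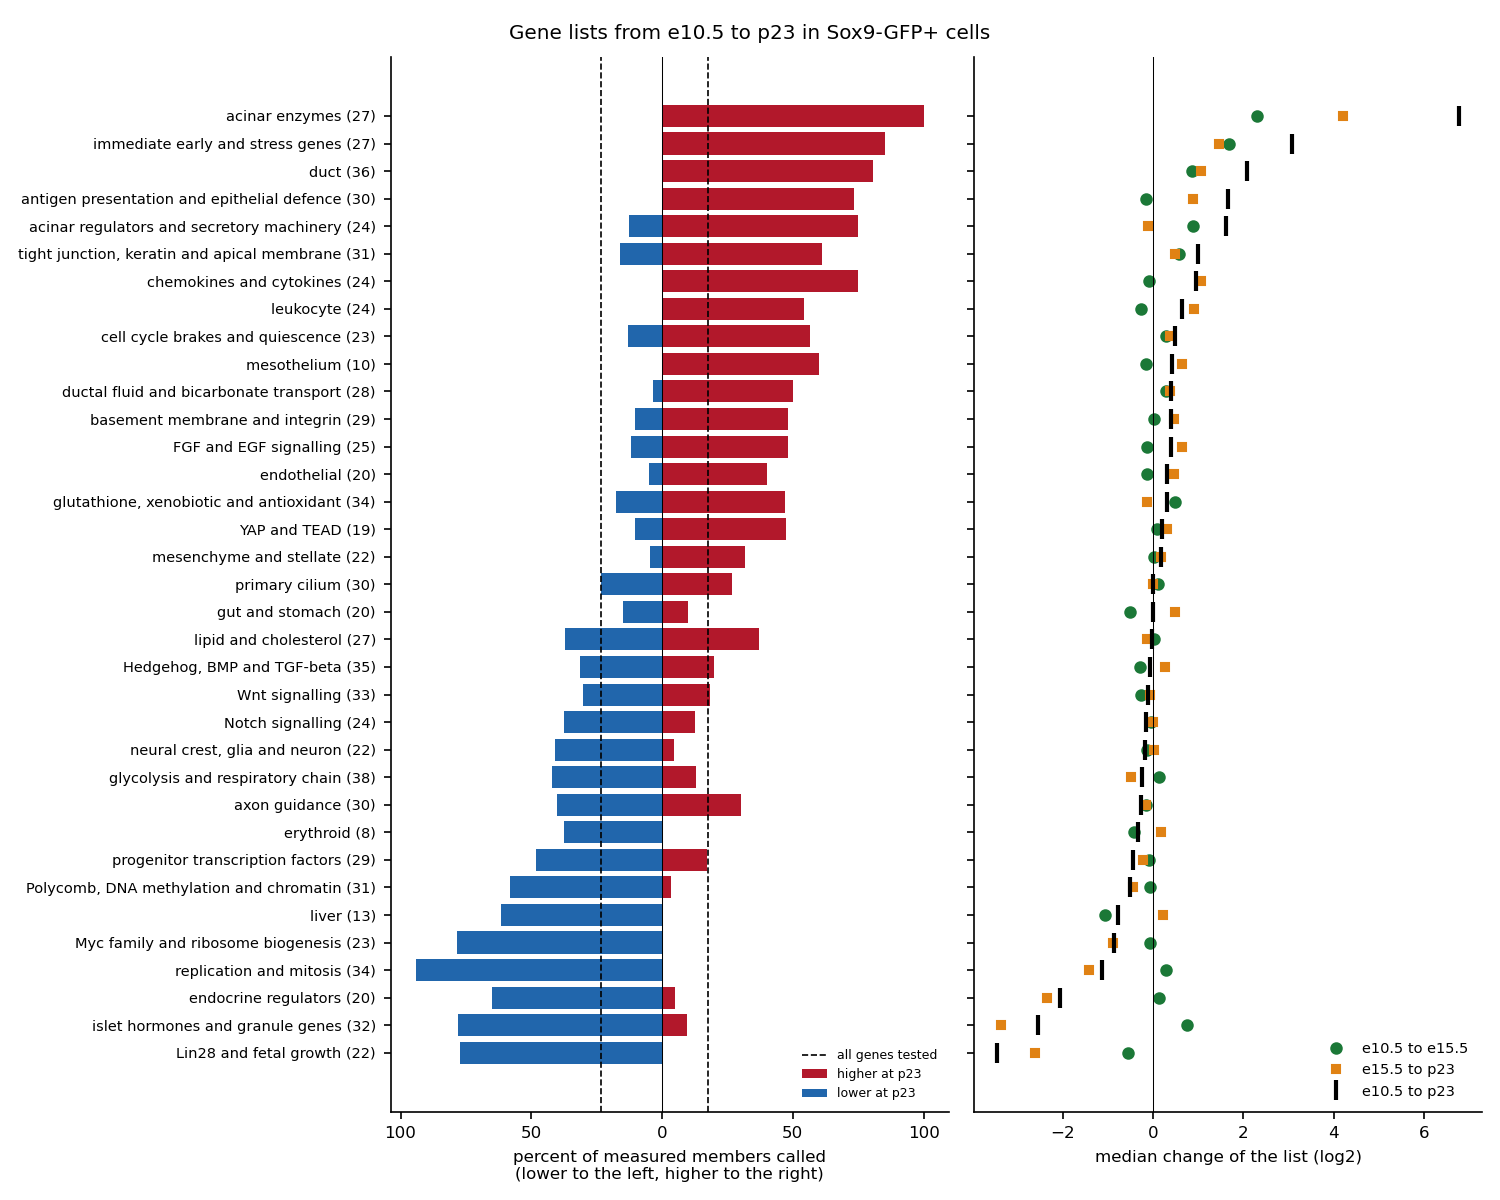
Left, the percent of each gene list's measured members (number in brackets) called as risen (red) or fallen (blue) by p23, with dashed lines at the 17.7 and 23.3% of all genes tested. Right, the median log2 change of each list before e15.5 (circles), after it (squares) and in all (bars), with acinar enzymes at the top and the Lin28 and fetal growth list at the bottom.

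The remaining marker lists stand for cell types that the sort could have carried along, and their part in the results was not tested. The endothelial list had a mean level of 6.90 to 7.04 at e10.5 and 7.36 to 7.59 at p23, against 8.21 to 8.46 in GFP- cells, and 8 of 20 rose, or 5 without the globin arrays. Pecam1 had levels of 6.40, 6.59 and 6.60 at e10.5, 7.38, 8.32 and 7.61 at p23 and 10.38, 10.499 and 10.80 in GFP- cells. The mesenchyme list lay at 7.59 to 7.65, 8.09 to 8.24 and 8.65 to 8.83 in the same order, with 7 of 22 higher, or 4 without either pair of arrays. Dcn, a matrix proteoglycan, rose by 4.04 (SE 0.35, adjusted p = 4.48e-07), whereas Col1a1 changed by 0.02 (SE 0.16, adjusted p = 0.952). Mesothelial genes lay at 6.94 to 7.16, 7.57 to 7.83 and 7.47 to 7.57, with 6 of 10 higher, or 2 without the globin arrays and 1 without the leukocyte arrays. Erythroid genes lay at 7.92 to 8.59 at e10.5 and 7.43 to 7.69 at p23, and 3 of 8 fell, or 1 without the globin arrays and 0 without the leukocyte arrays. Gut and stomach genes rose in 2 and fell in 3 of 20 cases, with 1 lower without the globin arrays. Olfm4, a gut stem cell gene, rose by 2.48 (SE 0.52, adjusted p = 0.00158), to 7.89, 10.87 and 8.30, with 1 array well above the others.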

How the data were processed

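RNA of sorted, pooled pancreatic cells was amplified from 20 ng per reaction and hybridised to Affymetrix mouse gene arrays, per the labels' protocols. The deposited values are probe set intensities. The submitters' processing notes name PLIER and Affymetrix Expression Console 1.1. Any normalization between arrays at that step is not stated there, and array medians ran from 165.5 to 211.7. From the 35557 probe sets, the 21789 that name 1 gene gave 19938 genes, each by its probe set of highest mean over 15 arrays; 1621 probe sets naming several genes and 12147 naming none were left out. Genes above 97.8 (30th percentile) in at least 3 arrays, 16883 in all, were fitted as log2(intensity + 16) with limma 3.58.1 (R 4.3.3) on all 15 arrays, 1 mean per group, with Benjamini-Hochberg adjustment over all of them. Every SE and adjusted p in the text is limma's, with n = 3 arrays a group. A large change was called at 0.05 and at least 4-fold. It was placed before or after e15.5 where the difference of the intervals was called, and through an extreme where either interval was called against the net direction.

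The members and the 35 gene lists, with 917 of 986 entries matched, were chosen with earlier results of these data known. Named were Sox9, Neurog3, Hbb-y and defining cell markers; the 12 largest rises and falls with no overlap and a mean above the table median; the 5 largest in each interval class; and up to 5 called and 3 uncalled members of each list. Promoter letters were searched in Python 3.11.15. The fit was tested on simulated data. No 2 arrays were identical.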

Additional observations from a re-analysis of the deposited data

How the results depend on the processing

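The net comparison was refitted with other offsets, scalings, filters, probe set rules, sets of arrays and variance models, and without each of the 9 Sox9-GFP+ arrays. Of the 300 named genes, 274 to 300 kept their direction and their side of the threshold under each setting, and Hbb-y alone reversed, at 0.10 (adjusted p = 0.964) without the e10.5 arrays with globin. The fit of the 9 Sox9-GFP+ arrays alone added 19 calls, among them Alb, Cldn4, Erbb3 and Prox1, and Hbb-y lost its call there. Over all genes that fit called 7883, and 231 large changes could not be placed in it. Genes called fell from 6916 to 2199 when tested against a 1.5-fold change and to 3951 without the globin arrays. Changes through an extreme at e15.5 numbered 36, then 20 with an offset of 64, 8 against 1.5-fold and 22 without the globin arrays. Unplaced changes numbered 315, 209 with array weights, whose estimation did not converge, and 527 against 1.5-fold. Changes placed before e15.5 numbered 105, 53 against 1.5-fold and 65 to 113 over the fits without 1 array. The fits without the globin or the leukocyte arrays were added after the data were seen, and with fewer arrays at an age fewer genes can be called. A replicate block, pairing arrays by the number in their titles, gave 6505 called genes and 931 large changes. Deviations of same-numbered arrays correlated at -0.148, -0.161 and -0.211 for e10.5 with e15.5, at -0.440, -0.0214 and -0.487 for e10.5 with p23, at 0.158, 0.0293 and 0.198 for e15.5 with p23, and at 0.108, -0.121 and -0.0254 for Sox9-GFP+ with GFP- cells at p23. In none of these 4 sets was every value over 0.1, so the numbers were not taken to pair the samples. Signals near background limit the fold changes of genes dim at one age, and with 3 arrays a group no exact test of a single gene can go below p = 0.1.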

Other observations

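Other genes that moved far are given here by their values. Rnase1, a member of the acinar enzyme list that encodes the secreted pancreatic ribonuclease, had levels of 5.92, 6.09 and 6.11 at e10.5, 6.41, 9.48 and 10.46 at e15.5 and 13.36, 13.37 and 13.25 at p23, a rise of 7.29 (SE 0.81, adjusted p = 5.13e-06) with 2.75 before e15.5 and 4.54 after it. Klf6, a zinc finger factor induced by injury, rose by 4.45 (SE 0.30, adjusted p = 4.45e-08), with 2.07 before e15.5 and 2.37 after it, and Adh1, an alcohol dehydrogenase, by 4.31 (SE 0.36, adjusted p = 2.80e-07). Neither could be placed in one interval. Plet1, a surface protein of epithelial progenitors, was at 8.65, 8.53 and 8.74 at e10.5, 7.54, 8.20 and 8.33 at e15.5 and 11.37, 11.57 and 11.94 at p23, against 8.37, 7.94 and 7.71 in GFP- cells, a rise of 2.99 (SE 0.22, adjusted p = 8.02e-08) after a dip of -0.62. The dip was lost in 7 of the 9 fits without 1 array.

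Among the falls, Arg1, the enzyme that splits arginine, went from 10.82, 10.75 and 10.48 at e10.5 to 8.35, 8.67 and 8.30 at e15.5 and 6.33, 6.77 and 6.52 at p23, and fell by 4.14 (SE 0.24, adjusted p = 8.09e-09) with -2.24 before e15.5 and -1.90 after it. Gjc1, a gap junction protein, fell by 4.30 (SE 0.37, adjusted p = 4.29e-07), with -1.34 before e15.5 and -2.96 after it. Fndc3c1, a fibronectin repeat protein, had levels of 11.11, 11.04 and 10.91 at e10.5, 5.70, 5.12 and 5.85 at e15.5 and 6.29, 5.90 and 5.71 at p23, and fell by 5.06 (SE 0.18, adjusted p = 1.19e-10). It was placed before e15.5 in 7 of the 9 fits without 1 array. Wnk3, a kinase that controls chloride transporters, fell by 5.69 (SE 0.27, adjusted p = 1.21e-09), with -2.01 before e15.5 and -3.68 after it.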
